A study of Mus musculus with 24 samples.

Results

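Axon guidance ligands and receptors were examined as 68 of 22225 protein-coding genes of the mouse mm9 annotation. They were chosen by symbol alone: every gene whose symbol begins with Sema, Plxn, Robo, Unc5, Epha, Ephb or Efn, Slit1 to Slit3, and Dcc, Ntn1, Nrp1 and Nrp2. Of these genes, 2 (Unc50 and Unc5cl) match by their letters only and are not guidance receptors; they were kept in every count and are named where they appear. Accessible chromatin had been mapped by ATAC-seq, which reads out where a transposase can insert into DNA, in Cux2 callosal projection neurons (CPNs, genotype Cux2-CreERT2:Ai14) and Tle4 corticothalamic projection neurons (CThPNs, genotype Tle4-2A-CreERT2:Ai14) of mice given as C57BL/6 in the labels and as of a mixed C57BL/6J background in the study's methods. All animals carried the Ai14 tdTomato reporter and had been exposed to 4-hydroxytamoxifen through the dam, and labelled cells were sorted from somatosensory and motor cortex at E18.5, P1, P3 and P7 (early) and at P21 and P48 (late). Each cell class was marked by 1 CreERT2 driver line, and each library pooled animals. The 24 libraries (2 per class and age) had been merged into 12 peak lists, so a single list has no replicate error and the ages served as the replicates of a stage.

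Guidance molecules steer growing axons and later shape dendrites and synapses. Netrin-1 attracts through DCC and repels through UNC5 receptors. Slits repel through Robo receptors, semaphorins signal through plexins with neuropilins as co-receptors for the secreted class, and ephrins bind Eph receptors on the neighboring cell. CPNs send axons across the corpus callosum and CThPNs send axons to the thalamus, and these families are known for routing both projections.

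The lists differed in length before any gene was considered. They held 21758 to 45649 peaks in Cux2 CPNs and 6540 to 22443 in Tle4 CThPNs, and the shortest were the late Tle4 lists (6540 at P21 and 11840 at P48). Read depth was not given in the peak lists. The late Cux2 lists were the longest (37432 at P21 and 45649 at P48). The length of a list therefore moved with class, and with stage in opposite directions in Cux2 CPNs and Tle4 CThPNs. Its part in each result was examined with every list reduced to its 6538 strongest peaks (equal list length). It cannot otherwise be told apart from class, or from stage within a class. Marker genes were checked against the labels. The Cux2 locus held 7.83 peaks within 50 kb of a start site on average in the Cux2 lists and 0.667 in the Tle4 lists, while the CThPN markers were split: of 8, Tle4 (2.33 and 3.67), Foxp2, Fezf2 and Tbr1 had the higher mean in the Tle4 lists, and Sox5 (4 and 1.67), Bcl11b, Crym and Zfpm2 in the Cux2 lists. All 4 endothelial markers and 6 of 7 oligodendrocyte-lineage markers had no promoter peak in any list. Of 5 microglial markers, P2ry12 and Tmem119 had one in 1 Tle4 list each. Of 5 progenitor markers, Pax6 and Sox2 had one in 2 Cux2 lists each and Nes in 1. Of 5 astrocyte markers, Gfap had one in 5 Cux2 lists, Aldh1l1 in 3 late lists and Slc1a3 in 1 list, and Aqp4 and Gja1 in none. Aldh1l1 held a mean of 0.5 peaks within 50 kb early and 4 late (unadjusted exact permutation p = 0.0222), and Gfap (3.83 and 1.33) and Slc1a3 (3.33 and 1) held more in the Cux2 than in the Tle4 lists (unadjusted exact permutation p = 0.03125 for each). Within 50 kb, Cldn5 (1.13 early and 2.5 late), Flt1 (1.5 and 0.5) and Nes (3.5 and 1.25) differed by stage (unadjusted exact permutation p = 0.00444 for each). P2ry12 held 1.5 early and 3.25 late (unadjusted exact permutation p = 0.0489). Flt1, Mog, Nes and Hes5 held more in the Cux2 lists (unadjusted exact permutation p = 0.03125 for each). The interneuron markers had promoter peaks at 0 to 4 of 6 genes in the early Cux2 lists and at 0 in every other list. The part of these non-neuronal, progenitor and interneuron markers in the results was not tested.

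A peak within 1 kb of an annotated transcription start site was called a promoter peak. In the Cux2 lists from E18.5 to P48, 40, 28, 31, 29, 26 and 38 of the 68 genes had one. In the Tle4 lists, 27, 24, 29, 20, 10 and 12 genes had one. The early lists averaged 28.5 ± 5.78 genes (SD, n = 8 lists) and the late lists 21.5 ± 13.1 (n = 4), so the stages overlapped, with the late Tle4 lists lowest and the late Cux2 lists within the early range. As a share, guidance promoters exceeded all protein-coding genes in 9 of 12 lists, by up to 1.32 times at Cux2 P48, and were below them at Tle4 P1, P21 and P48. With equal list lengths the order turned: guidance promoters were below all genes in 11 of 12 lists, down to 0.621 times, so the excess in the full lists lay among the weaker peaks.

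**Figure D1:**
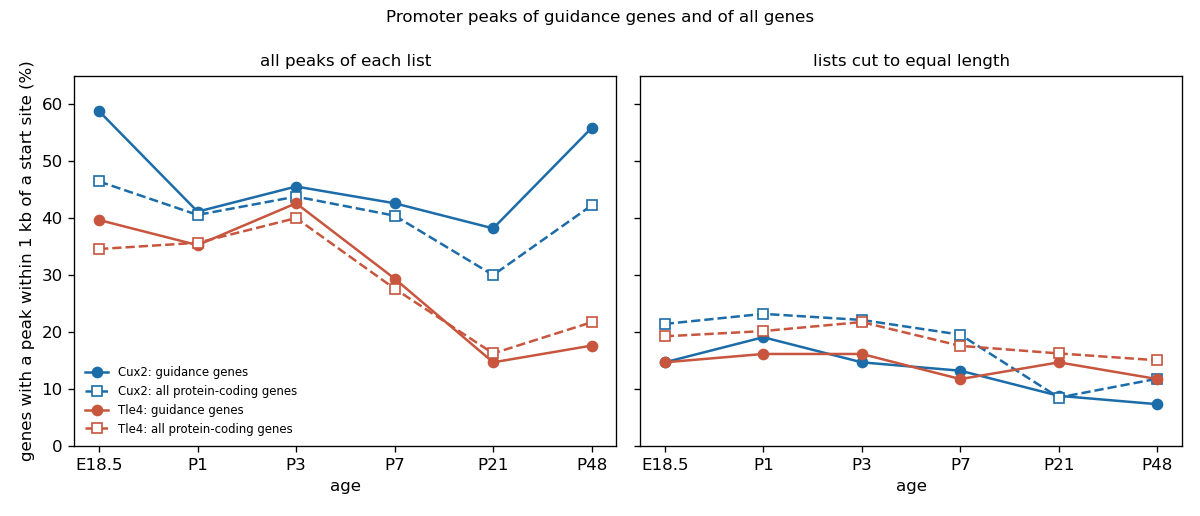
Share of genes with a peak within 1 kb of a start site (y axis, %) by age (x axis) in Cux2 CPNs (blue) and Tle4 CThPNs (red), for the 68 guidance genes (filled circles, solid lines) and all protein-coding genes (open squares, dashed lines). In the left panel, with all peaks, guidance genes reach 58.8% at Cux2 E18.5 against 46.5% of all genes; in the right panel, with equal list lengths, they lie between 7.35% and 19.1%.

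By promoter peaks, the guidance genes split into a small constant set, a large variable set and a set with none in any list. A promoter peak was present in all 12 lists at 7 genes (10.3%, against 13.2% of all genes). They were the ephrin Efnb1, the ephrin receptors Epha7 and Ephb3, the Robo family member Robo3 and the semaphorins Sema4b, Sema4f and Sema6c. The Robo3 peak lay at an annotated start 3.04 kb inside the gene, not at its 5' end. At 44 genes it was present in 1 to 11 lists. At 17 genes (25.0%, against 45.8% of all genes) it was found in no list: Efna2, Efna4, Efna5, Efnb3, Epha8, Ephb4, Ntn1, Plxna1, Plxna4, Plxnb3, Robo4, Sema3b, Sema3f, Sema3g, Sema6b, Slit2 and Unc5cl.

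Of the 44 variable genes, 22 had a promoter peak in 1 to 4 lists: Epha2, Ephb2, Plxnd1, Sema3e, Sema5a and Unc5c in 1, Dcc, Epha6, Nrp1, Nrp2, Plxna3, Plxnc1 and Slit1 in 2, Robo2, Sema3d, Sema6a, Sema6d and Unc5d in 3, and Efna1, Epha1, Plxnb2 and Unc5a in 4. Plxnb1 and Slit3 had one in 5 lists, Ephb6, Plxna2, Sema3c and Sema4g in 6, Sema4c, Sema7a and Unc5b in 7, and Robo1, Sema3a and Sema5b in 8. Efna3 and Sema4d had one in 9 lists, Epha10, Epha3, Epha4, Epha5, Sema4a and Unc50 in 10, and Efnb2 and Ephb1 in 11. By family, 11 of 12 transmembrane semaphorins and 8 of 9 EphA receptors had a promoter peak in at least 1 list, against 2 of 5 A-type ephrins and 4 of 7 secreted semaphorins.

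Some of the constant promoters, among them Sema4f, Ephb3 and Epha7, had strong peaks, while Robo3 ranked low in some lists. The strongest promoter peak of Sema4f had a fold enrichment of 11.6 to 20.4 over the 12 lists, that of Ephb3 11.8 to 20.0, and that of Epha7 10.1 to 15.6. Among the variable genes, Epha4, a receptor that many cortical axons use to sense ephrins, had a promoter peak in all 10 lists other than Tle4 P21 and P48, but at a fold enrichment of only 4.95 to 8.40, and it was in no list at equal length. The observed-to-expected CpG ratio was taken over the 300 bases from 250 before to 50 after each start. It was averaged over all annotated starts of a gene, internal ones included. Its median was 0.393 for the 7 guidance genes with a constant promoter peak and 0.539 for the 17 with none. Over all genes the medians were 0.667 and 0.243. The start that carried the peak was not taken alone, so these values do not give the CpG content of the accessible promoters themselves.

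**Figure D2:**
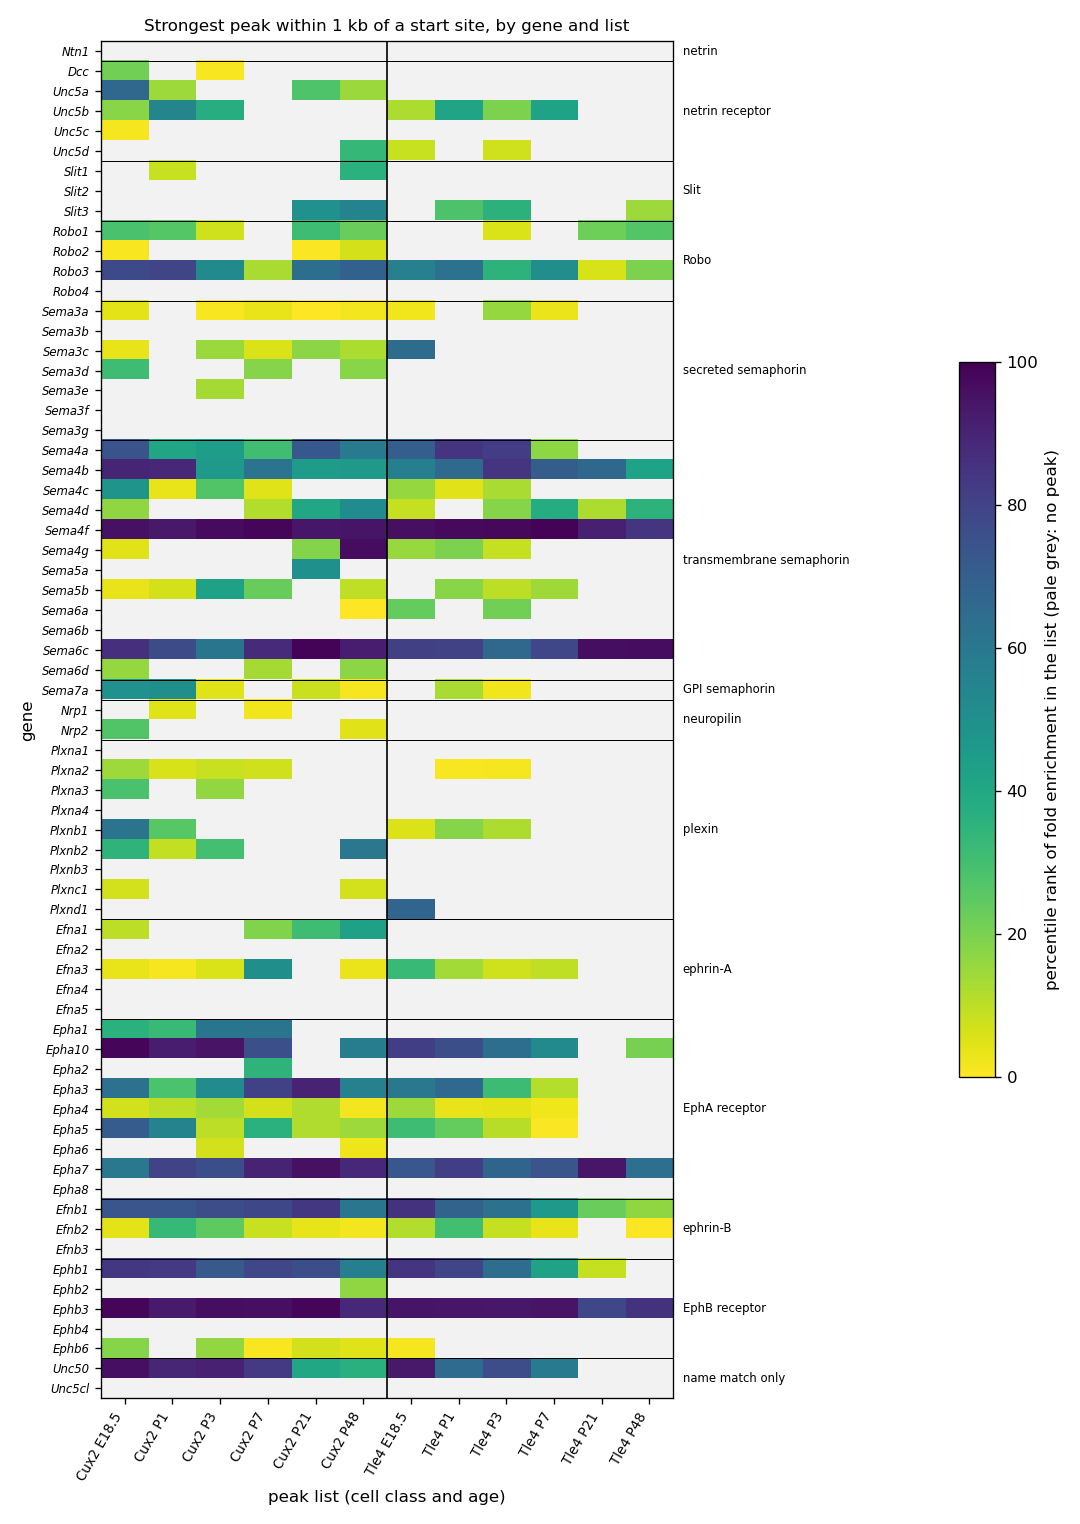
Strongest peak within 1 kb of a start site for each of the 68 genes (rows, by family) in each of the 12 lists (columns, Cux2 to the left of the black line and Tle4 to the right). Color gives the percentile rank of its fold enrichment within the list and pale grey marks no peak; Sema4f, Sema6c, Ephb3 and Epha7 are filled throughout, and the Tle4 P21 and P48 columns hold 10 and 12 peaks.

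Distance from a start site was then widened to 50 kb. Over the 12 lists, 461 of 85867 merged regions (0.537%) lay within 50 kb of a guidance gene start. Promoters of any annotated gene held 31.9% of them (16.6% of all regions), introns 37.5% (35.0%), exons 8.24% (5.24%) and intergenic sequence 22.3% (43.1%). Of the 147 promoter regions, 74 lay at a guidance gene and 73 only at another gene, so a 50-kb count includes peaks at neighbors. This was most plain for the 21 regions found in all 12 lists: 7 were guidance promoters, 13 were promoters of other genes only, and 1 was an intron of Plxnc1. The windows of Efna1, Efna3 and Efna4 overlap each other, as do those of Robo3 and Robo4, so these genes share peaks.

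Regions with a consistent pattern were collected in 4 categories: shared early (no late list, and 2 or more of the early lists in each class), shared late (all 4 late lists and no early list), Cux2-specific (at least 4 Cux2 lists and no Tle4 list) and Tle4-specific (the converse). Near guidance genes these held 18, 3, 23 and 2 regions, or 3.90%, 0.651%, 4.99% and 0.434% of the 461. Over all regions the shares were 3.05%, 0.715%, 4.98% and 1.30%. Shared early regions include the promoters of Unc5b, Plxnb1 and Plxna2 and a stretch at that of Epha4. Cux2-specific regions include the promoters of Epha1 and Plxnb2 and stretches at starts of Sema4f, Ephb3 and Epha4. The stretches of Sema4f and Ephb3 lay at annotated starts 22.2 and 6.34 kb inside the genes. Both Tle4-specific regions were intronic. At equal list length no Cux2-specific or Tle4-specific region remained, while 15 shared early and 1 shared late regions were counted.

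Regions among the 2 that ranked highest in each category are shown by sequence, as 200 bases of the mm9 plus strand centered on the summit of the strongest peak. Capitals mark a match to 1 of 6 motifs searched on both strands: TGANTCA (AP-1), CAGATG (proneural E-box), AACAAT (Sox), TAATTA (homeodomain), CACGTG (E-box) and TGACGTCA (CRE). They show what DNA the categories rest on. The highest shared early region lay in an intron of Unc5cl, which is not a guidance gene, and is left out.
Sema5a intron region, shared early: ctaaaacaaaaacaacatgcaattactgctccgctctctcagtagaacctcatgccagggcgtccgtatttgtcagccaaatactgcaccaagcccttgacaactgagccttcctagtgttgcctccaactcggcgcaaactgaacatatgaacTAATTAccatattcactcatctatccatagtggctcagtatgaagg
Sema4f upstream region, shared late: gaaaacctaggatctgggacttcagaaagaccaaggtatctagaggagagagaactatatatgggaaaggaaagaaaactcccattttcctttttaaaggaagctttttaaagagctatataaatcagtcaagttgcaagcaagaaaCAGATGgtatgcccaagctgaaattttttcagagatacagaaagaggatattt
Nrp1 upstream region, shared late: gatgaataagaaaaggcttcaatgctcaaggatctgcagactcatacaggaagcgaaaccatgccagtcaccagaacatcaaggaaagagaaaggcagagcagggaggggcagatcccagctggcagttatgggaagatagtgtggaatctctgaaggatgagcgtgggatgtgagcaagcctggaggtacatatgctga
Sema7a upstream region, Cux2-specific: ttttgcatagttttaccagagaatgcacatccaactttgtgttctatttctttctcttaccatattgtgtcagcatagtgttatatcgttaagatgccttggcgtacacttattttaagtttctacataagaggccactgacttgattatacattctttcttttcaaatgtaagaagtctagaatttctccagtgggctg
Sema4d upstream region, Cux2-specific: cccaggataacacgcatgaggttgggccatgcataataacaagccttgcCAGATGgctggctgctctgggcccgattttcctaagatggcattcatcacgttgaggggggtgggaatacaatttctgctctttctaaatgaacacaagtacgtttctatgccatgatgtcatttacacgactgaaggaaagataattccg
Sema3c intron region, Tle4-specific: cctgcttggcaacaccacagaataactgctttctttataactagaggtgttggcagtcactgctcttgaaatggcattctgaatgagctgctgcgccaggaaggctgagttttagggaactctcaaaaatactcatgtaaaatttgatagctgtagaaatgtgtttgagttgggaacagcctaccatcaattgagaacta
Epha7 intron region, Tle4-specific: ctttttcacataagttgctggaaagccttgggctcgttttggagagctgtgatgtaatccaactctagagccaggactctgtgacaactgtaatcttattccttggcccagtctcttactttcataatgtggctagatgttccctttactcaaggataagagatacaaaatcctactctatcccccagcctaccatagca

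The Sema5a region (chr15:32563358-32563994) was found in Cux2 E18.5 and P1 and in Tle4 E18.5, P1 and P3, at a fold enrichment of 9.46 to 15.3, and lay 31928 bp into the gene from the nearest start. It holds a homeodomain match. The shared late region 21605 bp upstream of Sema4f (chr6:82911368-82912395) lay in an intron of D6Mm5e and had a fold enrichment of 10.1 to 15 in the 4 late lists. It holds a proneural E-box match. The shared late region 22435 bp upstream of Nrp1 (chr8:130859657-130860538), the neuropilin that pairs with plexins to receive Sema3a, was intergenic, with a fold enrichment of 10.5 to 12.6 and no motif match.

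The remaining shared late region lay 11513 bp upstream of a start of Sema3a itself (chr5:13383833-13385271, fold enrichment 9.31 to 10.8). Nrp1 encodes a receptor for Sema3a. Regions in fewer of the late lists, such as those near Dcc and Plxna1, fell outside the category.

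Among Cux2-specific regions, the strongest lay 20626 bp upstream of Sema7a, a membrane-anchored semaphorin, at a part of Ubl7 (chr9:57766489-57767294). It was found in Cux2 E18.5 to P21, at a fold enrichment of 9.53 to 14.7. The region upstream of Sema4d (chr13:51911919-51912853), with a proneural E-box match, was found in the 4 early Cux2 lists at 10.4 to 12.5. The Tle4-specific regions in introns of Sema3c (chr5:17204597-17205297) and Epha7 (chr4:28837078-28837769) were found in the 4 early Tle4 lists and in no late list, at 8.98 to 11.9 and 6.86 to 9.50.

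Over 300-base windows, motif shares near guidance genes were close to or below those of all regions for the AP-1 (13.2% against 16.5%), proneural E-box (27.3% against 31.3%), Sox (9.76% against 11.9%) and homeodomain (5.86% against 7.61%) letters, and above them for CACGTG (8.03% against 4.82%) and the CRE (1.74% against 0.937%). The CRE was at 8 of the 461 regions. Away from promoters, CACGTG was at 6.37% of 314 guidance regions (against 3.90%) and the CRE at 2 (0.637% against 0.443%). Median GC content was 51.7% near guidance genes and 46.0% over all regions, and 47.7% and 44.7% away from promoters. These shares are descriptions without a test. In regions found in both late Cux2 lists and in no other list, the AP-1 letters were at 21 of 60 guidance regions (35.0%) and at 34.2% of all 12362 such regions. Over all genes they were at 42.7% of the 614 shared late regions, and at 0 of the 3 near guidance genes.

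Early (E18.5 to P7) and late (P21 and P48) lists were compared within class by an exact two-sided permutation of the stage labels, for which the smallest possible p was 0.00444. Of 44 guidance promoters that varied between lists, 3 had an unadjusted p of at most 0.05 and a promoter peak more often early (6.82%), against 10.0% of all 9116 promoters tested; 0 were more often late, against 0.592%. No gene of any kind had a Benjamini-Hochberg adjusted p of at most 0.05 in this test, which called 969 genes unadjusted; limma on ranks called 3577 of 12056 genes after adjustment. The share of guidance promoters biased to early lists was thus no larger than the background.

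The 3 genes were Unc5b, Sema4c and Efna3. Unc5b, a repulsive netrin receptor, had a promoter peak in 7 of 8 early lists and 0 of 4 late lists (exact permutation p = 0.0133, adjusted p = 0.228). Its fold enrichment was 7.63, 11 and 8.98 in Cux2 E18.5, P1 and P3, and 8.25, 10.2, 7.84 and 9.82 in Tle4 E18.5 to P7. Sema4c, a transmembrane semaphorin that binds plexin-B2, also had one in 7 early and 0 late lists (exact permutation p = 0.0133, adjusted p = 0.228). Efna3 had one in all 8 early lists and in 1 late list, Cux2 P48 (exact permutation p = 0.0222, adjusted p = 0.228). None of the 3, with list lengths made equal, kept an unadjusted p of at most 0.05.

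Ranking each promoter's strongest peak within its list and fitting limma with class and stage gave 6 of 51 guidance genes with an adjusted p of at most 0.05 (11.8%, against 29.7% of all 12056 genes). A promoter without a peak in a list was scored below every peak of that list. The percentile rank was lower late for Unc50, a match by its letters only (by limma, -62.3 points), Epha10 (-59.8), Ephb1 (-38.0) and Unc5b (-28.2). It was higher late for Sema6c (18.7) and Robo1 (17.2). Robo1, the main Slit receptor of callosal axons, had a promoter peak in 4 of 4 late lists and in 4 of 8 early lists. Ephb1, an ephrin-B receptor, was in 11 lists at a fold enrichment of 8.44 to 14.9 and missing at Tle4 P48.

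Within 50 kb, 5 of 67 guidance genes held more peaks late at an unadjusted p of at most 0.05 (7.46%, against 4.18% of 19464 genes), and 8 held more early (11.9%, against 10.6%). No gene had an adjusted p of at most 0.05 by permutation, with limma calling 1347 genes (6.92%) and 7 guidance genes (10.4%). The median difference, late minus early, was -0.125 peaks for the guidance genes and -0.125 for all genes. At equal list length the shares were 1.75% against 4.86% late and 8.77% against 14.8% early, and the medians were 0 for the guidance genes and -0.25 for all genes.

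The 8 genes with more peaks early were 3 ephrins, 2 semaphorins, Unc5b, Robo4 and Unc5cl. Unc5b held exactly 1 peak in each of the 8 early lists and 0 in each of the 4 late lists (exact permutation p = 0.00444, the smallest possible, adjusted p = 0.211; limma adjusted p = 0.000966). In 7 lists this was the promoter region, and at Cux2 P7 it was an intronic region 4449 bp inside the gene. None of these peaks was among the strongest 6538 of its list, so at equal list length Unc5b had 0 peaks in all 12 lists. Efna2, an A-type ephrin, held 12, 8, 9, 9, 5 and 8 peaks in the Cux2 lists from E18.5 to P48 and 7, 6, 7, 4, 1 and 3 in the Tle4 lists. Its mean was 7.75 early and 4.25 late (exact permutation p = 0.00889, adjusted p = 0.236), and the difference was of like size at equal list length (-3.13 peaks, exact permutation p = 0.00444). Efna2 has no promoter peak of its own, and its window includes promoters of Cirbp and Mum1.

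Efnb2, an ephrin-B, held 3, 3, 3, 5, 1 and 1 peaks in Cux2 CPNs and 5, 3, 4, 1, 0 and 1 in Tle4 CThPNs, a mean of 3.38 early and 0.75 late (exact permutation p = 0.0222, adjusted p = 0.236). Efnb3, the midline ephrin-B, held a mean of 3.25 early and 1.75 late (exact permutation p = 0.0356). The others were Robo4, whose mean was 2.88 early and 1.25 late, Sema5b (3.63 and 1.75), Sema6b (2.13 and 1.25) and Unc5cl (2.00 and 0.75). Robo4 turned direction at equal list length, with 0.625 peaks more late. Much of the difference at some of these genes lay at promoters of neighbors. Without peaks at promoters of other genes, early and late means were 0.5 and 0.25 for Efnb3, 0.125 and 0 for Sema6b, and 2 and 1 for Efna2. They were 2.5 and 0.75 for Efnb2, 3.5 and 1.75 for Sema5b, and 1.88 and 0.25 for Robo4. For Unc5cl they were 1 and 0.25, and for Unc5b 1 and 0.

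The 5 genes with more peaks late were the receptors Plxna1, Nrp1 and Dcc and the ligands Slit3 and Sema4f. Plxna1, a plexin for secreted semaphorins, held 0, 0, 1, 1, 3 and 4 peaks in the Cux2 lists and 0, 0, 0, 0, 0 and 1 in the Tle4 lists, a mean of 0.25 early and 2.00 late (exact permutation p = 0.0222, adjusted p = 0.236; limma adjusted p = 0.0446). At equal list length Plxna1 had 0 peaks in all 12 lists. Nrp1 held 0, 1, 0, 1, 1 and 2 peaks in Cux2 CPNs and 0, 0, 0, 0, 1 and 1 in Tle4 CThPNs (exact permutation p = 0.0133, adjusted p = 0.236; limma adjusted p = 0.0329). Dcc held 1, 0, 1, 0, 2 and 3 peaks in Cux2 CPNs and 1 peak in Tle4 CThPNs, at P48. Its early peaks in Cux2 E18.5 and P3 lay at the promoter, which had no peak in any late list. Slit3, a ligand, held a mean of 2.25 early and 4.50 late, and Sema4f 2.63 and 4.00.

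**Figure D3:**
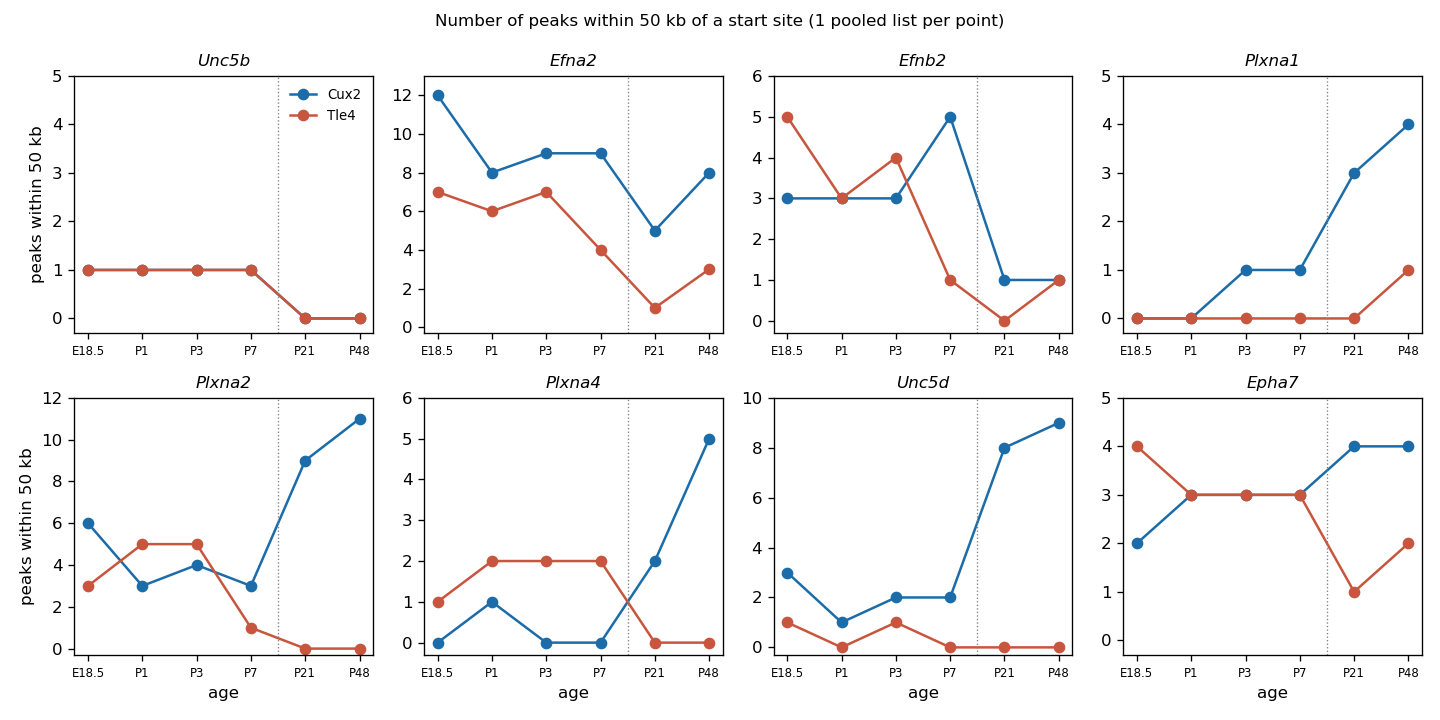
Peaks within 50 kb of a start site (y axis, number) by age (x axis) for 8 genes, with 1 pooled list per point in Cux2 CPNs (blue) and Tle4 CThPNs (red); the dotted line separates early from late. Unc5b has 1 in every early list and 0 in every late list, Efna2 and Efnb2 are lower late, and Plxna2, Plxna4 and Unc5d reach 11, 5 and 9 peaks in the Cux2 P48 list with 0 in the Tle4 P48 list.

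Cux2 and Tle4 lists were compared age by age by exact two-sided sign flips, with 64 patterns and a smallest possible p of 0.03125. An adjusted p of at most 0.05 would need most of the tested genes to stand at that p. That no gene passed adjustment in the class tests was therefore nearly fixed in advance. No guidance promoter of 44 had an unadjusted p of at most 0.05, against 0.746% of promoters more often open in Cux2 CPNs and 0.0110% in Tle4 CThPNs; no gene passed adjustment, and limma on ranks gave 9 guidance promoters at an unadjusted p of at most 0.05 and 0 after adjustment (against 3.42% of all genes). Efna1, Epha1, Plxnb2 and Unc5a each had a promoter peak in 4 Cux2 lists and in no Tle4 list. At Epha1 these were the 4 early lists. The percentile rank of Epha1, with a missing peak scored as 0, was 31.9 points higher in Cux2 CPNs (limma, adjusted p = 0.0708). The smallest adjusted p of a guidance gene was that of Unc50 (23.7 points, limma adjusted p = 0.0632).

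Within 50 kb, 12 of 67 guidance genes held more peaks in Cux2 CPNs at every age (17.9%, against 16.3% of all genes), each at the smallest possible exact permutation p of 0.03125 and an adjusted p of 0.185, and 0 held more in Tle4 CThPNs (against 0.0103%). They were Efna2, Efnb3, Epha1, Epha4, Ephb3, Plxna3, Robo3, Sema3d, Sema4a, Sema4d, Sema7a and Unc5d. With limma on log2(peaks + 1), 8008 of the 19464 genes (41.1%) had an adjusted p of at most 0.05, and 33 of the 67 guidance genes (49.3%) did. With list lengths made equal, 0 of the 12 kept an unadjusted p of at most 0.05, and the median difference of guidance genes went from 1.5 to 0.167 peaks, with all genes at 1.17 in the full lists. The class difference in peak number moved with list length. Without peaks at promoters of other genes, the Cux2 and Tle4 means were 0.333 and 0 for Plxna3 and 0.833 and 0 for Efnb3. The means of Epha4, Ephb3, Robo3, Sema3d and Unc5d were unchanged.

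A few genes differed in proportion as well, in the full lists. As peaks per 10000 peaks of the list, Unc5d had 1.14 in Cux2 CPNs and 0.16 in Tle4 CThPNs, and Epha1 0.99 and 0.47 (exact permutation p = 0.03125 for each). Sema3d, a secreted semaphorin, held 2, 1, 2, 2, 1 and 1 peaks in the Cux2 lists and 0 in every Tle4 list. Epha1 and Sema3d held 0 peaks in every list at equal list length, so their differences lay among the weaker peaks. Unc5d then held 1 peak in 1 Cux2 list and 0 in every other list. Sema4a, Efna2 and Plxna3 turned to slightly fewer per 10000 in Cux2 CPNs.

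Whether the late-minus-early change differed between classes was tested by the same permutation of stage labels. Of 67 guidance genes, 15 had an unadjusted p of at most 0.05 with the larger change in Cux2 CPNs (22.4%, against 14.4% of all genes), and 0 had it in Tle4 CThPNs (against 0.103%); the smallest adjusted p was 0.173, and no gene passed. The late Tle4 lists were the shortest and the late Cux2 lists the longest, and at equal list length 1 gene (Plxnc1) of 57 had the larger change in Cux2 CPNs (1.75%, against 1.07% of all genes) and 3 (Robo3, Robo4 and Slit2) in Tle4 CThPNs (5.26%, against 4.12%). Expressed per 10000 peaks of the list, Plxna2, Plxna4, Efna1, Epha5 and Epha8 kept their direction at an unadjusted p of at most 0.05.

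Plxna2, a plexin that receives secreted and transmembrane semaphorins, held 6, 3, 4, 3, 9 and 11 peaks in the Cux2 lists from E18.5 to P48 and 3, 5, 5, 1, 0 and 0 in the Tle4 lists (exact permutation p = 0.00444, adjusted p = 0.173). Of its 17 regions, 6 were in both late Cux2 lists and nowhere else, and its promoter region was in 6 early lists and no late list. Plxna4, the plexin that partners neuropilin-1, held 0, 1, 0, 0, 2 and 5 peaks in Cux2 CPNs and 1, 2, 2, 2, 0 and 0 in Tle4 CThPNs (exact permutation p = 0.00444, adjusted p = 0.173). Efna1 (exact permutation p = 0.00444) had means of 5 early and 8 late in Cux2 CPNs, and 3.75 and 0.5 in Tle4 CThPNs. Epha5 had 1.5 and 3.5 in Cux2 CPNs and 1.25 and 0 in Tle4 CThPNs, and Epha7 had 2.75 and 4, and 3.25 and 1.5.

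Unc5d, a netrin and FLRT receptor known from upper-layer neurons, held 3, 1, 2, 2, 8 and 9 peaks in Cux2 CPNs and 1, 0, 1, 0, 0 and 0 in Tle4 CThPNs (exact permutation p = 0.0267, adjusted p = 0.261). The Cux2 late lists, which were also the longest, stood apart from all 10 other lists. At equal list length Unc5d held 1 peak at Cux2 P21 and 0 in every other list. Of its 12 regions (gene at chr8:29757189-30329810, minus strand), 5 were in both late Cux2 lists only, and 11 were in Cux2 lists only. The 1 region in Tle4 lists (E18.5 and P3) lay at the start of the longer transcript. A region in an intron, at chr8:30022054-30023668, was in the 4 early Cux2 lists and at P48, at a fold enrichment of 7.84 to 11.6. Unc5a, a further netrin receptor, had no peak in any Tle4 list and 1, 1, 0, 0, 3 and 6 in Cux2 CPNs. At equal list length Unc5a had no peak in any list.

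**Figure D4:**
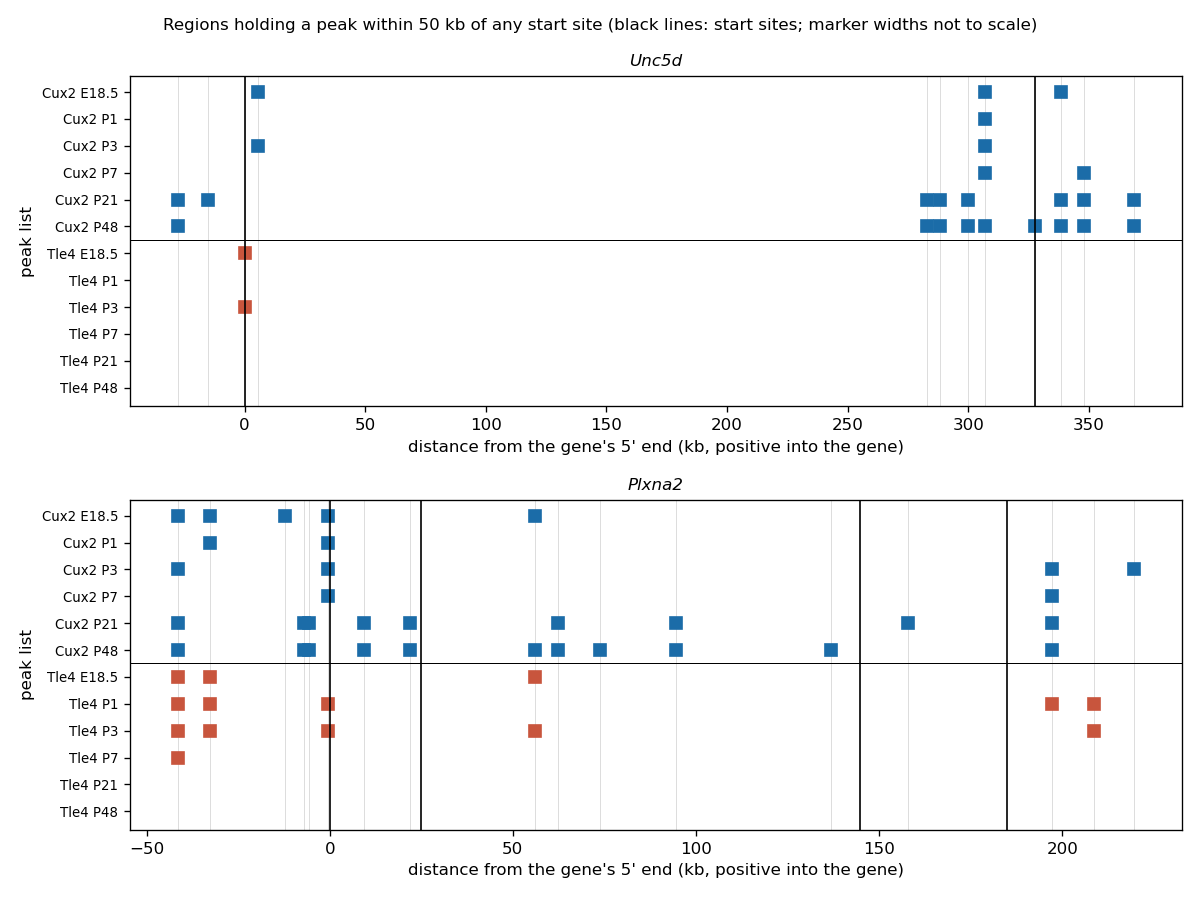
Regions with a peak near Unc5d and Plxna2, by distance from the 5' end of the gene (x axis, kb) and list (rows), in Cux2 CPNs (blue) and Tle4 CThPNs (red); black lines mark annotated start sites. The P21 and P48 Cux2 rows hold 8 and 9 regions at Unc5d and 9 and 11 at Plxna2, and the same Tle4 rows hold 0 at both.

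Regions found only in both late Cux2 lists were not particular to guidance genes: they made up 60 of the 461 regions (13.0%) and 14.4% of all regions. Their median percentile rank within their lists was 51.0, and 31 of the 60 were intronic, 20 intergenic, 8 at promoters and 1 at an exon.

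Genes well known for wiring these projections varied in their number of peaks within 50 kb, against a mean over all genes of 2.39 in the Cux2 lists and 1.30 in the Tle4 lists. Ntn1, which encodes netrin-1, had no promoter peak and held 1 peak at Cux2 P21 and P48 and 2 at Tle4 P7. Sema3e, a ligand of Plxnd1, held 1 peak in Cux2 P3 and in Tle4 E18.5 and 0 elsewhere. Plxnd1, a receptor of callosal neurons, held 2, 1, 1, 4, 5 and 5 peaks in Cux2 CPNs and 2, 1, 1, 2, 0 and 1 in Tle4 CThPNs. Sema3a held 4, 2, 5, 5, 6 and 7, and 2, 2, 3, 3, 1 and 1.

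Unc5c held 2, 1, 2, 3, 2 and 4 peaks in Cux2 CPNs and 1, 1, 0, 0, 0 and 1 in Tle4 CThPNs. Among Robo ligands, Slit1 held 4, 2, 7, 3, 4 and 8 peaks in Cux2 CPNs and 2, 2, 2, 0, 0 and 0 in Tle4 CThPNs, while Slit2 held 1 to 3 in every list. Nrp2, the second neuropilin, held 0 to 4 peaks in the Cux2 lists and 1 in a single Tle4 list, E18.5. Efna5, a graded A-type ephrin, held 0 to 3 peaks in all lists with none at its promoter.

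In the wider pathway, of 32 genes for guidance adhesion molecules and co-receptors, 2 (Alcam and Fzd3) held more peaks within 50 kb late and 0 early at an unadjusted p of at most 0.05, and 7 held more in Cux2 CPNs, where the shares over all genes were 4.18%, 10.6% and 16.3%. Of 41 intracellular signalling genes, 0 held more late, 3 (Dpysl3, Srgap1 and Cfl1) held more early, and 11 held more in Cux2 CPNs, against the same shares. The promoters of Ntng1 and Rac1 had a peak in all 8 early lists and in 1 late list each. None passed adjustment in the permutation tests.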

How the data were processed

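ATAC-seq libraries were made from sorted Cux2 CPNs and Tle4 CThPNs at 6 ages with 2 replicates each. Per the labels and the study's methods, the authors aligned single-end reads to mm9 with Bowtie2, removed duplicates with Picard and called peaks with MACS2 on pooled replicates, keeping those that passed an irreproducible discovery rate of 0.1. No shift for the transposase is stated. The deposited peak lists give each peak's position, its fold enrichment as a ratio over background and the −log10 of its p-value. The study's methods state a single approximate depth for all of these libraries. Read counts are not given in the lists, so the depth of each library is unknown, and intervals based on counts were not computed. Only the names of the Cux2 lists are marked as a v2.

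Peaks on chromosomes 1 to 19, X and Y were used (292934 of 292994). The NCBIM37 annotation (GENCODE, the same build) gave start sites of all transcripts of 22225 protein-coding genes. A gene's value was the presence of a peak within 1 kb, or the number within 50 kb, of any start site. Stage was tested by exact permutation within class, class by exact sign flips over ages, with Benjamini-Hochberg adjustment over all genes whose value varied. limma 3.58.1 was run as an alternative on percentile ranks and on log2(peaks + 1). Peaks overlapping by 1 bp were merged into regions. Genes named in each comparison were up to 10 per direction with an unadjusted p of at most 0.05, plus fixed genes of cortical wiring. Some genes were singled out after their values were seen (Unc5a, Epha1, Plxnb2, Sema3d and Plxnc1, and the genes named from limma). The members, gene lists and tests were chosen with earlier results of these data known. The counting and the tests were checked on simulated data. Analyses used Python 3.11.15 and R 4.3.3.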

Additional observations from a re-analysis of the deposited data

Results flagged for a closer look

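For 5 genes, the late-minus-early change in the number of peaks within 50 kb differed between the classes at the smallest p that the exact permutation of stage labels allows (unadjusted p = 0.00444, adjusted p = 0.173). The change in Cux2 CPNs exceeded that in Tle4 CThPNs by 9.50 peaks at Plxna2, 6.25 at Efna1, 5.00 at Plxna4, 3.25 at Epha5 and 3.00 at Epha7. Efna1 turned to -0.25 at equal list length, and none of the 5 kept an unadjusted p of at most 0.05; the late Tle4 lists held 6540 and 11840 peaks and the late Cux2 lists 37432 and 45649.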

How the results depend on the processing

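No paired analysis was possible because the replicates were pooled before the peak lists were made. The counts below are guidance genes with an unadjusted p of at most 0.05, against 3 for stage at promoters, 13 for stage within 50 kb, 0 and 12 for class, and 15 for class by stage. They were 1, 6, 0, 0 and 4 at equal list length. With a common −log10 p the class count within 50 kb was 0 and the class-by-stage count 9. Within 100 kb the class-by-stage count was 23. Per 10000 peaks of the list, the stage and class counts within 50 kb were 20 and 7. With limma they were 15 and 9 at promoters and 20 and 43 within 50 kb (stage and class). Leaving out 1 list at a time, the stage count ranged from 2 (without Cux2 P21) to 5 (without Tle4 E18.5) at promoters and from 4 (without Cux2 P21; 8 without Tle4 P21 or P48) to 15 within 50 kb, and the class-by-stage count from 9 (without Cux2 P48) to 18. The class count within 50 kb was 0 by construction, since 5 ages cannot give a p below 0.0625.

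Near guidance genes there were 18 shared early, 3 shared late, 23 Cux2-specific and 2 Tle4-specific regions. The last 3 were 1, 0 and 0 at equal list length. With a common −log10 p, 2 were Cux2-specific. With starts of protein-coding transcripts only, 0 were Tle4-specific. Within 100 kb, 29 were shared early and 36 Cux2-specific. Leaving out 1 list, shared early regions ranged from 14 to 27 (without Cux2 P48), shared late from 3 to 13 (without Tle4 P21), Cux2-specific from 13 (13 or 14 without any 1 of the early Cux2 lists) to 29 and Tle4-specific from 0 (without any 1 of the early Tle4 lists) to 3.

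Several single genes reversed, and the cause was not tested. At equal list length these were Robo4 for stage (0.625), Sema4d for class (-0.33), and Efna1 (-0.25) and Plxnb3 (-1) for class by stage. With a common −log10 p they were Efnb3 (-0.33) and Epha4 (-0.17) for class. Within 100 kb, Unc5cl reversed for stage (1), and without peaks at promoters of other genes Plxnb3 did for class by stage (-0.25). Per 10000 peaks of the list they were Sema4a (-0.019), Efna2 (-0.0056) and Plxna3 (-0.024) for class, and Plxnb3 (-0.19) and Sema4a (-0.43) for class by stage. No gene named by the rule reversed when 1 list was left out. The unknown depth of each library and the pooling of replicates limit every count.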
